A study of Oryza sativa with 2 samples.

Results

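The Lhca genes encode the chlorophyll-binding antenna proteins of photosystem I, and 6 of them were followed here among the 37896 locus rows measured in rice seedlings. They are Lhca1 (LOC_Os06g21590, chromosome 6), Lhca2 (LOC_Os07g38960, chromosome 7), Lhca3 (LOC_Os02g10390, chromosome 2), Lhca4 (LOC_Os08g33820, chromosome 8), Lhca5 (LOC_Os02g52650, chromosome 2) and Lhca6 (LOC_Os09g26810, chromosome 9). The rule that chose the 6 used locus IDs of the Lhca family and no measured value, although earlier results of these data were known. The pairing of ID and name comes from the list that defined the set, since the deposited tables hold IDs without names. Each of the 6 IDs stood on 1 row in each table, and the chromosomes were read from the IDs.

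Poly(A) RNA was sequenced from whole plants, 3 weeks old, of wild-type 93-11, an indica rice cultivar. Seedlings stood in Yoshida solution, a nutrient medium for hydroponic rice, under short days of 10 h light and 14 h dark, at a light intensity of 800 μmol per square metre and second. There were 2 libraries, both of the same group, with no mutant, treatment or second cultivar, so no condition was contrasted. The labels number them replicate 1 and replicate 2 without saying whether they came from separate plants or pools, and the spread between them may be technical. The sources used here give neither the hour of harvest nor the organs that made up each sample. In a whole plant, fewer green cells and less Lhca RNA per green cell cannot be told apart. With no named gene for root, leaf or meristem in the tables, the labelled tissue could not be checked against markers of its organs.

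In plants, photosystem I uses light to drive electrons from plastocyanin to ferredoxin. Its core is flanked by a belt of antenna proteins that are encoded in the nucleus, made in the cytosol and imported into the chloroplast. In the plant photosystem I structures, Lhca1 pairs with Lhca4 and Lhca2 pairs with Lhca3 to form this belt. Lhca5 and Lhca6 are minor members, and in Arabidopsis both serve to attach photosystem I to the chloroplast NADH dehydrogenase-like complex, which takes part in cyclic electron flow.

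Transcripts of the 4 belt proteins were far more abundant than those of Lhca5 and Lhca6, called the linker genes below, by 100.8-fold on average. The unit is FPKM, a fragment number divided by transcript length and by the mapped fragments of the library, so that levels can be set side by side between genes. Within replicate 1 the mean level of Lhca1 to Lhca4 was 98.7 times that of Lhca5 and Lhca6, and within replicate 2 it was 102.8 times. The SD of this ratio over the 2 libraries was 2.93. All 6 genes were detected at 1 FPKM or more in both libraries, as were 53.1% of all 37896 rows.

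Lhca3, a belt protein that in Arabidopsis carries some of the long-wavelength chlorophylls of photosystem I, had the highest mean level. It stood at 3333 FPKM in replicate 1 and 2481 FPKM in replicate 2, or 2907 ± 602.4 FPKM (SD, n = 2). Lhca1, the partner of Lhca4 in the belt, stood at 3369 FPKM in replicate 1 and 2272 FPKM in replicate 2, or 2821 ± 775.6 FPKM. The 2 genes exchanged places between the libraries, with Lhca1 ahead in replicate 1 and Lhca3 ahead in replicate 2, so their order was not resolved.

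Lhca4, which in Arabidopsis also binds long-wavelength chlorophylls, stood at 2728 FPKM in replicate 1 and 2042 FPKM in replicate 2, or 2385 ± 484.6 FPKM (SD, n = 2). Lhca2, the partner of Lhca3, stood at 2351 FPKM in replicate 1 and 1529 FPKM in replicate 2, or 1940 ± 580.8 FPKM. Within each library Lhca4 was below Lhca1 and Lhca3, and Lhca2 was the lowest of the 4. Across the libraries, however, the FPKM ranges of neighbours in this order overlapped.

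The linker genes formed a separate, low tier. Lhca6 stood at 34.8 FPKM in replicate 1 and 22.5 FPKM in replicate 2, or 28.7 ± 8.63 FPKM (SD, n = 2). Lhca5 stood at 24.9 FPKM in replicate 1 and 17.9 FPKM in replicate 2, or 21.4 ± 4.95 FPKM. Lhca6 was above Lhca5 within each library, by 1.39-fold in replicate 1 and 1.26-fold in replicate 2, although their ranges overlapped between libraries. No range overlapped across the gap between the tiers. Lhca2, the lowest belt gene, was 67.6 times Lhca6 in replicate 1 and 67.8 times Lhca6 in replicate 2.

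**Figure D1:**
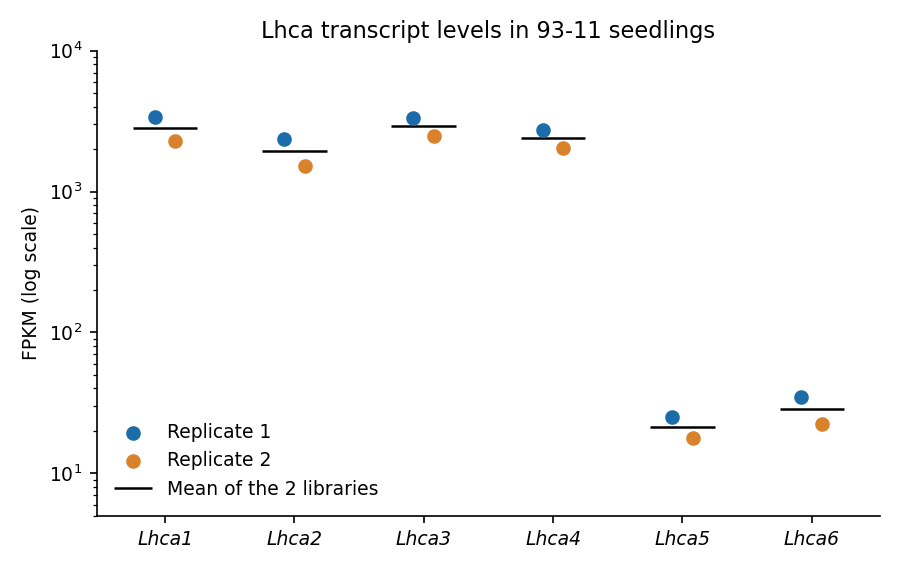
FPKM of each Lhca gene on a log axis, with a point for each library and a line at the mean of the 2 libraries. Lhca1 to Lhca4 lie between 1529 and 3369 FPKM, Lhca5 and Lhca6 lie between 17.9 and 34.8 FPKM, and the point of replicate 1 is above that of replicate 2 for each gene.

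The belt genes were among the most abundant transcripts of the seedlings. By mean level over all rows, Lhca3 ranked 16, Lhca1 ranked 19, Lhca4 ranked 26 and Lhca2 ranked 32. Their ranks in single libraries ran from 17 for Lhca1 in replicate 1 and Lhca3 in replicate 2 to 36 for Lhca2 in replicate 2. All 4 belonged to the 59 loci whose mean reached 1000 FPKM. On its own chromosome Lhca1 was the most abundant of 3155 loci. Lhca3 ranked 2 of 4150 loci on chromosome 2, Lhca4 ranked 2 of 2638 on chromosome 8, and Lhca2 ranked 4 of 2872 on chromosome 7.

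The linker genes stood in the upper part of the expressed loci but far below the belt genes. Lhca6 ranked 4150 and Lhca5 ranked 5522 by mean level. Their ranks differed between the libraries, at 3439 (replicate 1) and 5158 (replicate 2) for Lhca6, and 4807 and 6430 for Lhca5. Among the 20128 loci detected in both libraries, whose median was 10.4 FPKM, the mean levels lay at the 79.5 percentile for Lhca6 and the 72.7 percentile for Lhca5. Between the means of Lhca6 and Lhca2 lay 4117 other loci.

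**Figure D2:**
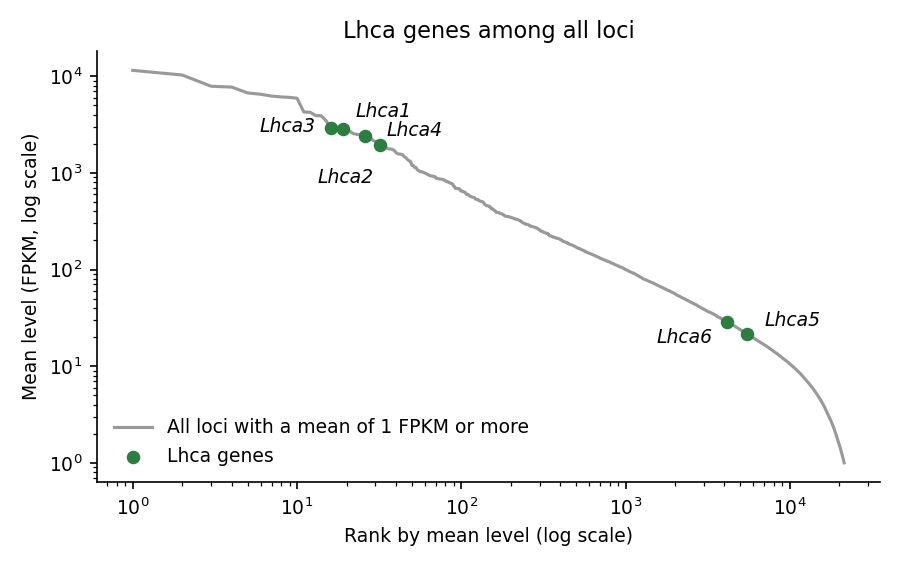
Mean FPKM over the 2 libraries against rank, both on log axes, for loci whose mean reached 1 FPKM (line) and for the 6 Lhca genes (points). The belt genes sit at ranks 16 to 32 and the linker genes at ranks 4150 and 5522.

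Together the 6 genes summed to 11840 FPKM in replicate 1 and 8365 FPKM in replicate 2, or 10102 ± 2457 FPKM (SD, n = 2). This was 1.60% of the summed FPKM of replicate 1 and 1.25% of that of replicate 2. The belt genes made up 99.5% ± 0.0143 of the family sum, and the linker genes 0.494% ± 0.0143.

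The balance of the genes within the family differed less between the libraries than their levels did. Lhca3 held 28.1% of the family sum in replicate 1 and 29.7% in replicate 2. Lhca1 held 28.5% in replicate 1 and 27.2% in replicate 2. Lhca4 held 23.04% in replicate 1 and 24.4% in replicate 2, and Lhca2 held 19.9% in replicate 1 and 18.3% in replicate 2. Lhca1 and Lhca2 thus had the larger share in replicate 1, and Lhca3 and Lhca4 in replicate 2. The shares of the linker genes were 0.294% (replicate 1) and 0.270% (replicate 2) for Lhca6, and 0.211% and 0.214% for Lhca5. Across the 15 ratios that can be formed between 2 members, the ratio moved between libraries by 1.00-fold (Lhca2 over Lhca6) to 1.15-fold (Lhca4 over Lhca6).

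**Figure D3:**
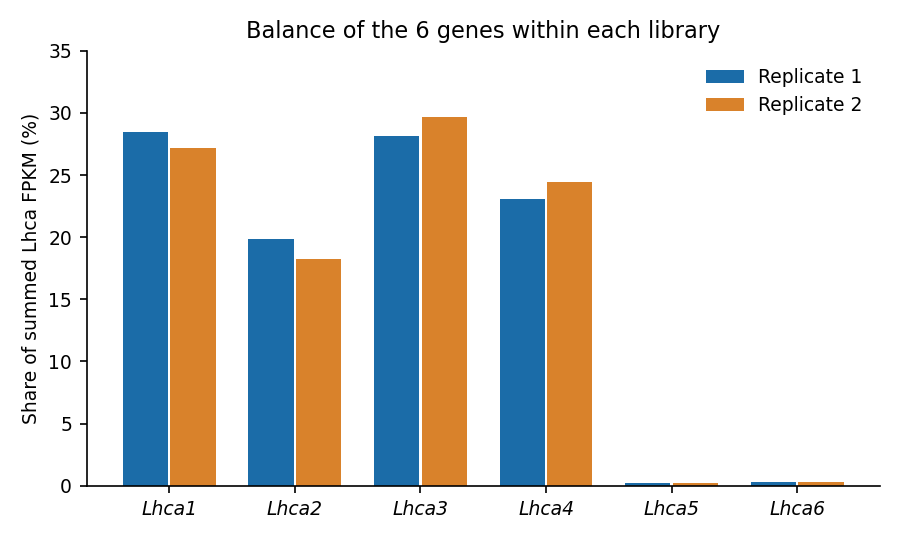
Share of the summed Lhca FPKM held by each gene, in percent, with a bar for each library. Lhca2 moves most in percentage points, from 19.9% to 18.3%, and is the lowest of the belt genes in both libraries. The bars of Lhca5 and Lhca6 are under 0.3%.

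Grouped by their partners in the protein belt, the transcript sums of the 2 dimers were close. The belt genes were not summed in any other pairing, so the closeness cannot be tied to the partner grouping. Lhca1 and Lhca4 summed to 6097 FPKM in replicate 1 and 4314 FPKM in replicate 2. Lhca2 and Lhca3 summed to 5683 FPKM in replicate 1 and 4010 FPKM in replicate 2. The former sum was 1.07 times the latter in replicate 1 and 1.08 times in replicate 2. Within the dimers the partners were less even. Lhca3 was 1.42 times Lhca2 in replicate 1 and 1.62 times in replicate 2, and Lhca1 was 1.24 times Lhca4 in replicate 1 and 1.11 times in replicate 2. These are ratios of transcript levels, and protein amounts were not measured.

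All 6 genes were higher in replicate 1. The fold of FPKM in replicate 1 over replicate 2 was 1.54 for Lhca6, 1.54 for Lhca2, 1.48 for Lhca1, 1.39 for Lhca5, 1.34 for Lhca3 and 1.34 for Lhca4. On the log2(FPKM + 1) scale the differences ran from 0.42 to 0.62, with a median of 0.51. In the 10366 loci whose mean reached 10 FPKM, 60.7% had the higher value in replicate 1 and the median difference was 0.09, with quartiles at -0.16 and 0.31. The 6 members therefore lay above the upper quartile of these loci. None of the 6 was more than 2-fold apart, against 6.25% of the 10366 loci (1.91% in the direction of replicate 1).

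The direction was kept when the libraries were rescaled. Scaling to the same total shifts every log2 ratio of FPKM by -0.15, and slightly less at low levels once 1 is added. The median of the 6 was then 0.36 and that of the 10366 loci was -0.05. With a median-of-ratios scaling the medians were 0.45 and 0.03. All 6 remained higher in replicate 1 under both scalings. The share of the 10366 loci higher in replicate 1 after scaling was not computed, so the count of 6 has no background beside it. High loci other than the members also leaned this way, since the 55 further loci whose mean reached 1000 FPKM had a median difference of 0.54 on the log2(FPKM + 1) scale, as deposited. The belt genes ran from 0.42 to 0.62 on that scale.

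Each gene was also set against the 200 other loci nearest to it in mean level. For the belt genes these were nearly the same loci for each, reaching down to about 341 FPKM, as few loci are so abundant. The absolute difference between libraries exceeded that of 52.5% of such loci for Lhca3, 51.5% for Lhca4, 66.5% for Lhca1 and 73.0% for Lhca2. For the linker genes, whose like-level loci spanned 21.01 to 21.9 FPKM around Lhca5 and 27.99 to 29.3 FPKM around Lhca6, it exceeded 81.0% for Lhca5 and 89.5% for Lhca6. At this level the median locus leaned less towards replicate 1, by 0.14 around Lhca5 and 0.10 around Lhca6 against 0.32 around the belt genes. With 1 library on each side, none of these differences has a replicate check, and no p-value was attached.

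**Figure D4:**
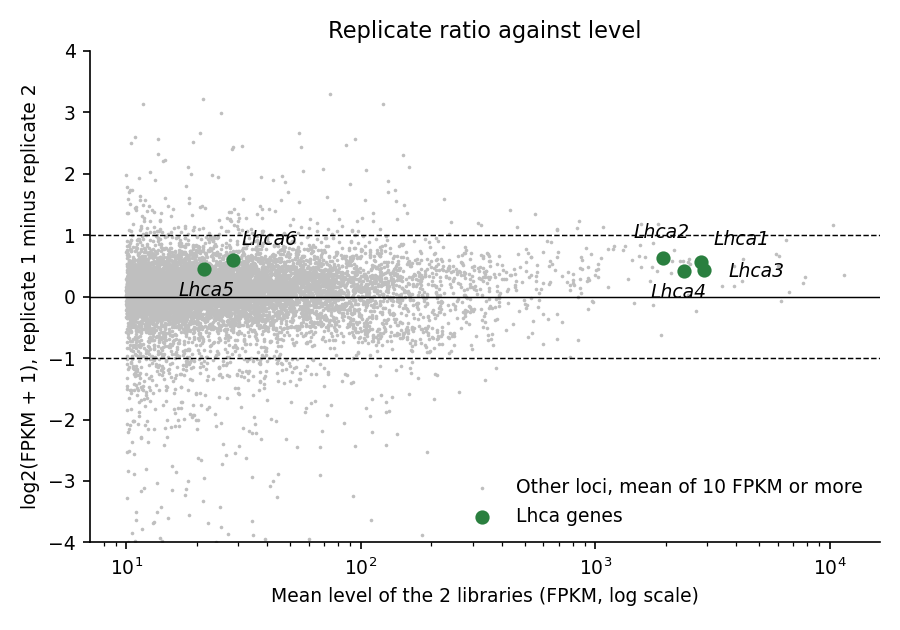
Difference in log2(FPKM + 1) between replicate 1 and replicate 2 against mean FPKM (log axis) for loci whose mean reached 10 FPKM (grey) and the Lhca genes (green), with dashed lines at 2-fold; 62 other loci lie outside the plotted range. The 6 Lhca genes lie between 0.42 and 0.62, inside the dashed lines, in both the high and the low tier.

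The high level of the belt genes was not shared by the loci next to them in number. Of the 12 loci that precede or follow a member by locus number, 10 were detected in both libraries, and their median over all 12 was 8.89 FPKM. The highest of the 12, the locus after Lhca2, stood at 47.1 ± 3.32 FPKM (SD, n = 2), so that Lhca2 was 41.2 times higher. The loci on either side of Lhca3 stood at 4.13 ± 0.880 and 2.42 ± 0.0204 FPKM. Lhca6 differed least from its surroundings, at 2.16 times the locus before it and 3.44 times the locus after it. Locus numbers give an order and not a distance in bases.

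Likeness in level was measured as the distance between loci over log2(FPKM + 1) in the 2 libraries. For Lhca3, the highest member, the nearest other locus was LOC_Os09g36930, at 3308 FPKM (replicate 1) and 2387 FPKM (replicate 2). For Lhca5, the lowest, it was LOC_Os07g40450, at 24.9 FPKM (replicate 1) and 18.04 FPKM (replicate 2). With 2 libraries of 1 group, this likeness describes the level and the replicate difference and nothing further.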

How the data were processed

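Per the file headers, the authors' tables hold IDs and FPKM values, 1 table for each library. The submitters' processing notes list TopHat2 and Cufflinks and no versions. How fragments shared between related genes were handled, which build and annotation were used and whether values were filtered is not given in the sources used, and each can change an FPKM value. The IDs have the form of a japonica annotation, whereas 93-11 is indica. Summed FPKM was 741624 (replicate 1) and 668305 (replicate 2). No fragment counts come with them, so the depth is unknown, and neither counting intervals nor floors are given.

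Levels were used as deposited, with no filter, and means carry the SD over both libraries. Replicate differences used log2(FPKM + 1), which understates the change of low loci, and loci were called apart past 2-fold at a mean of 10 FPKM or more. No test was possible with 1 group. The calls and both scalings were run on simulated data with planted changes larger than the differences of the 6 members. The simulated noise did not vary with level, so the check does not cover differences as small as those of the members. The 6 members are all named, with the nearest locus in level for the highest and the lowest. The members, lists and ratios were chosen with earlier results of these data known. None of the 6 members matched the 39387 genes of the RefSeq table by ID or name, so no sequences, gene lengths or lists of other photosystem genes were used. Alternatives were other scalings, pseudocounts, thresholds and windows, and each library alone. Python 3.11.15, numpy 2.4.6, pandas 2.3.3 and matplotlib 3.10.9 were used.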

Additional observations from a re-analysis of the deposited data

How the results depend on the processing

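No paired analysis was possible because both libraries belong to 1 group. With 2 libraries, leaving 1 out moves a mean by less than its SD by construction, so the values of single libraries say nothing about stability. All 6 genes were higher in replicate 1 under both scalings. These shift every log2 ratio of FPKM, before 1 is added, by only -0.15 (same total) and -0.07 (median of ratios). The lowest member stood at 0.42. Another pseudocount cannot change which library is higher, so that setting was no check on the direction. Detection of all 6 at 0.1 or 5 FPKM and after both scalings followed from their lowest value, 17.9 FPKM. Against a share of 1.42% of the summed FPKM, the 6 genes held 2.00% of a sum without the 100 most abundant other loci. Their median log2 difference between libraries was 0.36 with both scaled to the same total. At 1.5-fold, 2 members (Lhca2 and Lhca6) were apart, against 16.7% of loci whose mean reached 10 FPKM. With 3 loci on each side, the median of the loci next to the members was 5.04 FPKM. In single libraries, the rank ran from 17 to 18 for Lhca3, from 17 to 22 for Lhca1, from 25 to 26 for Lhca4 and from 33 to 36 for Lhca2. It ran from 3439 to 5158 for Lhca6 and from 4807 to 6430 for Lhca5. Among 100 loci of like level, the absolute difference exceeded that of 42% for Lhca3 and 41% for Lhca4. The ratios between partners and between the sums of the dimers were added after seeing the data. The unknown depth leaves the counting error of all 6 levels unknown.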

Other observations

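The deposited values were written with different numbers of digits. Lhca2 and Lhca5 carried more than 6 digits in both libraries, 10 for Lhca2 and 7 for Lhca5, and the other 4 genes carried 6. Among the 20128 loci detected in both libraries, 25.9% carried more than 6 digits in both. The step that left the further digits is not stated in the sources used, and its part in the levels of Lhca2 and Lhca5 was not tested.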
